A study of Rattus norvegicus with 24 samples.

Results

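Cultured heart muscle cells treated with doxorubicin carried transcripts of genes that were silent without it. Among these are Nkx6-1, Bhlhe23, Gpr50, Tmem200c, Palm3 and Hsd11b2, 6 of 21767 gene symbols in the count table. They were chosen from measured values, being near 0 CPM (counts scaled to library size) with a negative control mimic alone and present with that mimic and doxorubicin. Values in control mimic libraries are therefore a description and carry no test for these genes. Tests compared only libraries that the choice did not use, those with a miR-222 mimic, a miR-455 mimic or both. The fit held all 24 libraries, so control mimic libraries still shared in the filter and in the estimate of the spread.

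The cells were neonatal ventricular myocytes from Sprague-Dawley rats, a primary culture that also holds other cells of the ventricle, and polyA RNA was sequenced. There were 24 libraries in 8 groups of 3: negative control mimic, miR-222-3p mimic, miR-455-3p mimic or both mimics, each with doxorubicin or with control treatment. All groups, controls included, were transfected with a mimic at 5 nM (5 nM of each in the combination), treated from 48 h later, and harvested after 24 h of treatment. Doxorubicin was at 4 uM by the sample protocol, while the series description has 4 mM. No label ties replicates to animals or culture days, and p-values here reflect the spread among these libraries alone, which may be technical. The design asks whether the mimics change the response to doxorubicin, an anthracycline cancer drug that poisons type II topoisomerases and damages the heart.

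The 6 genes have known roles outside the working ventricle. Nkx6-1 is a homeodomain transcription factor of pancreatic beta cells and of progenitors in the ventral neural tube. Bhlhe23 is a basic helix-loop-helix factor of the retina and brain. Gpr50 is an orphan receptor related to the melatonin receptors, Tmem200c a membrane protein of little known function, and Palm3 a member of the paralemmin family of proteins bound to the inner face of the plasma membrane. Hsd11b2 inactivates corticosterone in the kidney and so shields the mineralocorticoid receptor from it. MicroRNAs such as miR-222 and miR-455 pair through their seed, bases 2 to 8, with messenger RNAs and lower their translation or level.

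The mature rat microRNAs whose mimics define the groups are shown because every comparison below sets their groups against each other. They are the RefSeq sequences on the GRCr8 build, 5′ to 3′, with the seed in capitals. The letters of the designed mimics themselves were not used here.
rno-miR-222-3p: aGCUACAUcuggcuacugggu
rno-miR-455-3p: gCAGUCCAcgggcauauacacu
The seeds differ, so the microRNAs belong to separate seed families.

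Promoters are shown because the 6 genes were chosen as near silent without doxorubicin and present with it. CpG-rich and CpG-poor promoters are known to be kept silent by different means. RefSeq promoters on GRCr8 were matched for 4 of the 6 genes; none was matched for Palm3 and Hsd11b2. Each line gives the 250 bases before the start site on the gene's strand, 5′ to 3′, with CpG dinucleotides in capitals: Nkx6-1 at chr14:8273988-8274237 (+), Bhlhe23 at chr3:188268787-188269036 (-), Gpr50 at chrX:154413439-154413688 (+) and Tmem200c at chr9:116252530-116252779 (+).
Nkx6-1: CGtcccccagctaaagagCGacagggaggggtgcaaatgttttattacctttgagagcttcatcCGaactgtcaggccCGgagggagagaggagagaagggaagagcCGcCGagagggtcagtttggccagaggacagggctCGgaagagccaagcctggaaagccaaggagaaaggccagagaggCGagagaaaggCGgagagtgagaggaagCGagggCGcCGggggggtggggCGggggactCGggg
Bhlhe23: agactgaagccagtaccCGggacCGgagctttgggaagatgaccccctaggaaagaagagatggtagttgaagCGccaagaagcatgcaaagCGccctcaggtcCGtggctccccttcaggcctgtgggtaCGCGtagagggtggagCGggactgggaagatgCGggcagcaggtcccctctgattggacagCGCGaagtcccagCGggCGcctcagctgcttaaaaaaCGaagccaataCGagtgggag
Gpr50: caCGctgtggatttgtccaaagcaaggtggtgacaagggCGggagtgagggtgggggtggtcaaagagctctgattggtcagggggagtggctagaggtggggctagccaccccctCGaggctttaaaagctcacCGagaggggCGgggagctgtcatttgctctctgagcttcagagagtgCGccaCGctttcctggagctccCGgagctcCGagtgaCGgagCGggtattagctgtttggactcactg
Tmem200c: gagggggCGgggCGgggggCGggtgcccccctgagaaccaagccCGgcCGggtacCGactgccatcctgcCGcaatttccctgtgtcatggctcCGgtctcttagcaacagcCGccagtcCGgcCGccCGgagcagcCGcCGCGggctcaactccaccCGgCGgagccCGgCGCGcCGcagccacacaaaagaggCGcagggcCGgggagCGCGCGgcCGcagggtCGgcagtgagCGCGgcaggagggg
The Tmem200c promoter held 30 CpG dinucleotides, Bhlhe23 15, Nkx6-1 14 and Gpr50 11, against a median of 5 over 33465 rat promoters of the same length. These counts lie at percentiles 95.3, 76.2, 74.2 and 68.5 of all promoters. GC content was 75.6% for Tmem200c, 62.4% for Nkx6-1 and 60% for both Bhlhe23 and Gpr50, against a median of 51.2%. All 4 promoters thus lie above the median on both measures.

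**Figure D1:**
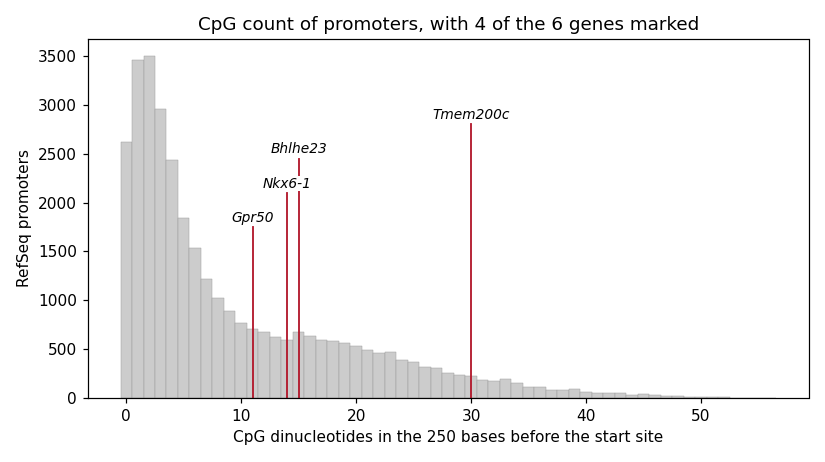
CpG dinucleotides in the 250 bases before the start site (x axis) for 33465 RefSeq rat promoters (y axis, number of promoters), with Nkx6-1, Bhlhe23, Gpr50 and Tmem200c marked by red lines whose heights carry no value. The 4 marked promoters hold 11 to 30 CpG dinucleotides, above the median of 5.

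Motifs were searched in the same windows on both strands. The GC box GGGCGG occurred 4 times in the Tmem200c promoter, 2 times in Gpr50, once in Nkx6-1 and not in Bhlhe23, and 30.5% of all promoters held it. CCAAT occurred 2 times in Bhlhe23 and once in Gpr50, against 34% of all promoters with a match. The E-box CAGCTG, a form bound by neurogenic helix-loop-helix factors, was found only in Bhlhe23 among the 4, and 12% of all promoters held it. None of the 4 windows held TATAAA, TGACGTCA, the interferon-stimulated response element or the p53 half-site, which occurred in 12.9%, 1.59%, 3.41% and 6.64% of all promoters. Each GGGCGG contains a CpG dinucleotide, and the only matches of these searches that overlap are a pair of GC boxes in Tmem200c that share a base.

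Library totals ran from 17311955 to 25750311 counts. Libraries were scaled by trimmed mean of M values (TMM), with factors of 0.572 to 1.01 with doxorubicin and 1.04 to 1.37 without. Replicate 1 of the control mimic with doxorubicin stood apart: it had the fewest genes with at least 10 counts, 11469, and the highest mitochondrial share of counts, 38.2%, against a low of 5.54%. Cardiomyocyte markers, over the 9 of 10 listed genes in the table, summed to 15700 to 37100 CPM per library without doxorubicin and 14400 to 38600 with it. Among them, Pln, the inhibitor of the calcium pump, was at 512 to 1790 CPM without doxorubicin and below that range with it, down to 24 CPM, and Nkx2-5, a cardiac transcription factor, at 4.86 to 130 CPM without and 0 to 5.14 CPM with it. These falls were not shared by the whole list. Tnnt2 was at 2610 to 5280 CPM without and 4970 to 10900 with doxorubicin, and Myl2 at 578 to 2380 and 1790 to 4360. Fibroblast markers summed to 10600 to 40400 CPM, most of it Col1a1 at 9130 to 37400 CPM. The other listed fibroblast genes were far lower, with Postn at 122 to 2510, Dcn at 51 to 252 and Pdgfra at 24 to 100 CPM. In such bulk samples, fewer cells of a type and less RNA per cell cannot be told apart.

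Without doxorubicin the 6 genes were all but absent. In the control mimic libraries 5 of the 6 had no count, and Gpr50 had a single count in replicate 3. A group at 0 allows up to 3 counts over its 3 libraries, or 0.0422 CPM with the control mimic; such floors cover counting error only. In the 9 libraries with a microRNA mimic and no doxorubicin the highest level of any of the 6 was 0.614 CPM, Nkx6-1 in miR-455 replicate 3. Bhlhe23 and Gpr50 were each at 0 in 8 of those 9 libraries, Hsd11b2 in 7, Palm3 in 5, Tmem200c in 4 and Nkx6-1 in 3.

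With doxorubicin and the control mimic, the contrast that chose them, mean levels were 5.4 to 19.9 CPM. Of all 14303 genes tested, 15.2% were called higher in this contrast (adjusted p under 0.05), and nothing is read from the 6 against that share. Each of the 24 folds given below (6 genes in 4 mimic conditions) moved by over 1.5 times when 1 library was left out. Part of this is arithmetic: without 1 untreated library, the floor or the same few counts fall on less depth. With so few untreated counts, the folds show the size of the change only roughly. The counting intervals given with some folds cover counting error in the untreated counts alone. They hold the treated mean fixed and leave out the spread between libraries, so a fold can fall outside its interval when 1 library is left out. The values that follow take the genes by role, transcription factors first, and name libraries by replicate 1, 2 and 3 in that order.

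Nkx6-1 reached the highest level of the 6 in the control mimic group with doxorubicin. It stood at 9.39, 30.9 and 19.5 CPM with the control mimic and doxorubicin, a mean of 19.9 ± 10.8 (SD, n = 3), at least 472-fold above the floor. With miR-455 and doxorubicin it was at 17.6, 18.2 and 11.8 CPM, a range inside that of the control mimic. With miR-222 it was at 8.5, 4.33 and 3.5 CPM and with both mimics at 3.85, 3.42 and 1.46 CPM. All 6 of those libraries were below every control mimic and every miR-455 library with doxorubicin. Its fold over the same mimic without doxorubicin was 64.9 with miR-222 (95% counting interval 31.5 to 161), 64.7 with miR-455 (41 to 109) and 36.1 with both (16.6 to 98.5). Of the 18 untreated Nkx6-1 counts with miR-455, 14 came from replicate 3, and without that library the fold with miR-455 was 201 (95% counting interval 78.5 to 738). Without untreated miR-222 replicate 1 the fold with miR-222 was 153 (42.3 to 1260).

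Bhlhe23 was the other transcription factor and the most uneven with the control mimic. It was at 0, 10.4 and 5.78 CPM with the control mimic and doxorubicin, 5.4 ± 5.22 CPM (SD, n = 3). The library at 0 is the one with the fewest genes; without it the mean was 8.1 CPM over the remaining 2. With miR-455 it was at 4.93, 4.14 and 6.15 CPM, with miR-222 at 3.64, 1.04 and 2.23 CPM, and with both at 2.65, 1.37 and 2.28 CPM. Every miR-455 library was thus above every miR-222 library and every library with both mimics. The folds over untreated libraries were at least 128 with the control mimic, at least 124 with miR-455, at least 52.2 with both and 192 with miR-222, the last against 1 count (95% counting interval 34.5 to 7580).

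Gpr50, the orphan receptor, was at 15.7, 6.6 and 7.84 CPM with the control mimic and doxorubicin, 10.1 ± 4.96 CPM (SD, n = 3). Its highest control mimic library was the one with the fewest genes, and the mean without it was 7.22 CPM. With miR-455 it was at 8.21, 7.13 and 5.22 CPM, overlapping the control mimic. With miR-222 it was at 2.69, 1.39 and 1.18 CPM and with both at 1.33, 3.17 and 2.23 CPM, all below every miR-455 library. The fold was 715 with the control mimic against 1 count (95% counting interval 128 to 28200), at least 168 with miR-455, at least 48.7 with miR-222 and 41.7 with both (16.3 to 153).

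Tmem200c had the tightest miR-455 group of the 6. It was at 11.8, 8.61 and 15.7 CPM with the control mimic and doxorubicin, 12 ± 3.54 CPM (SD, n = 3). With miR-455 it was at 9.55, 10.4 and 10.3 CPM, 10.1 ± 0.481 CPM. With miR-222 it was at 2.32, 1.39 and 3.32 CPM and with both at 3.5, 0.498 and 3.51 CPM, all below every miR-455 and control mimic library with doxorubicin. The fold was at least 285 with the control mimic, at least 247 with miR-455, 37.3 with both (95% counting interval 16 to 115) and 13.9 with miR-222 (8.31 to 25.5). Its untreated counts were 14 with miR-222, 11 of them in replicate 3, and none with miR-455. Without that library the fold with miR-222 was 43.6 against 3 counts (14.9 to 211).

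Palm3 followed another order in the combination. It was at 7.57, 5.72 and 4.73 CPM with the control mimic and doxorubicin, 6.01 ± 1.44 CPM (SD, n = 3), at least 142-fold above the floor. With miR-455 it was at 2.72, 5.14 and 4.19 CPM and with miR-222 at 1.13, 1.5 and 0.35 CPM, without overlap between these groups. With both mimics it was at 1.2, 6.59 and 2.93 CPM, a spread that covers the miR-455 libraries. Its fold was 266 with both against 1 count (95% counting interval 47.8 to 10500), 83 with miR-222 against 1 count (14.9 to 3280) and 42.2 with miR-455 against 7 counts (20.5 to 105), an order other than that of the levels. Of those 7 untreated miR-455 counts 6 came from replicate 3, and without it the fold was 204 (36.5 to 8040). The high value with both mimics came from replicate 2, one of the 4 libraries with the fewest genes, and without it the mean fell from 3.57 to 2.06 CPM. Palm3 was the one gene of the 6 whose deposited counts were not whole, so part of its reads was divided by estimation.

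Hsd11b2, the corticosterone-inactivating enzyme, was the least steady of the 6 with both mimics. It was at 1.72, 10.7 and 4.73 CPM with the control mimic and doxorubicin, 5.72 ± 4.58 CPM (SD, n = 3), at least 136-fold above the floor. With miR-222 it was at 3.64, 1.56 and 1.84 CPM and with miR-455 at 2.31, 3.89 and 3.43 CPM, groups that overlap. With both mimics it was at 1.58, 0 and 0 CPM, so 1 library carried all 37 counts of the group. The fold was at least 65.2 with miR-222, 118 with miR-455 (95% counting interval 32.6 to 974) and 39.3 with both (7.05 to 1550).

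**Figure D2:**
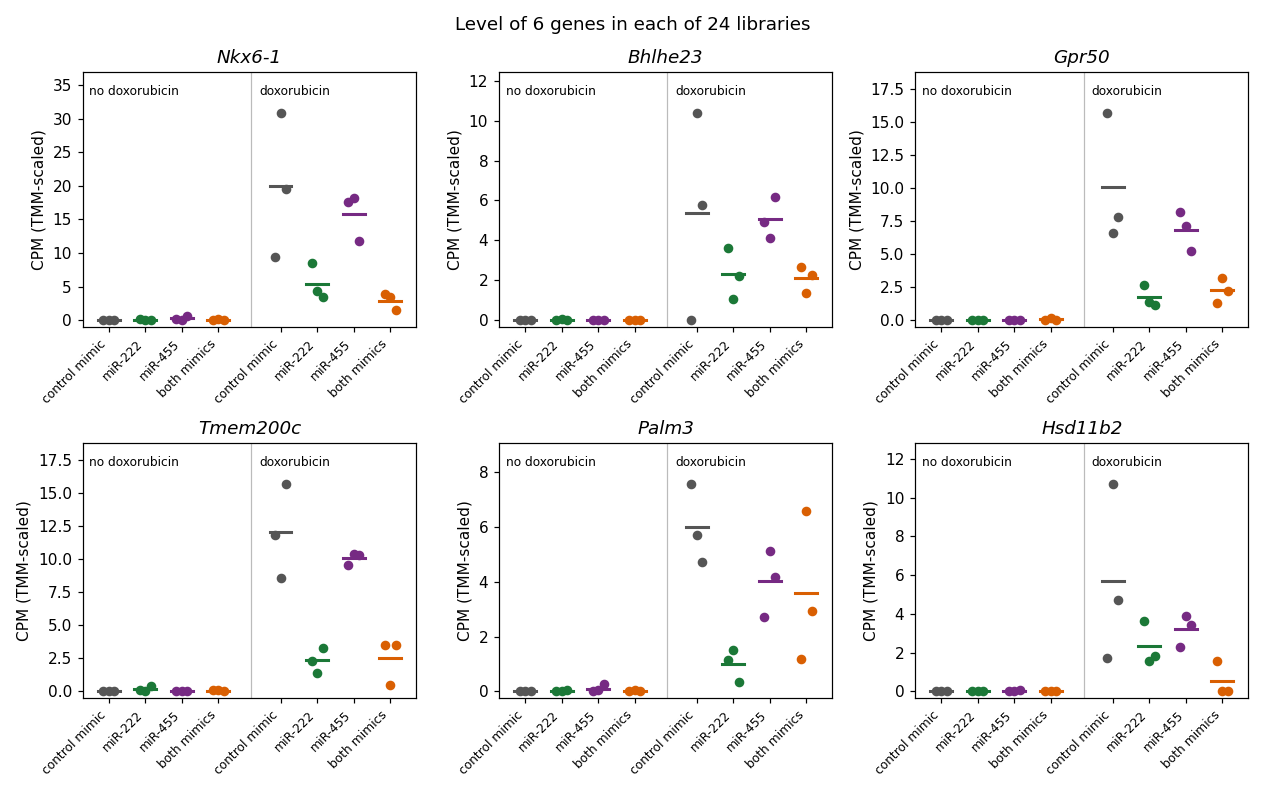
Level of each of the 6 genes in CPM (y axis, linear, starting near 0 and scaled per panel) in each of 24 libraries, by mimic condition without and with doxorubicin (x axis); each point is 1 library and each bar the group mean. Libraries without doxorubicin lie at or near 0, and with doxorubicin the control mimic and miR-455 groups lie above miR-222 and both for Nkx6-1, Gpr50 and Tmem200c.

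Doxorubicin raised these genes in the mimic libraries as well, which the choice did not use. In edgeR's quasi-likelihood test with Benjamini-Hochberg adjustment over all genes, 6 of the 6 were called higher with miR-222, where 7.76% of all genes tested were, and 6 of the 6 with miR-455, where 9.02% were. With both mimics 5 of the 6 were called higher, against 7.85% of all genes. The exception was Hsd11b2, with an adjusted p of 0.0631. Averaged over the 3 mimic conditions all 6 were called, against 19.7% of all genes tested, with adjusted p from 1.39e-07 (Gpr50) to 6.13e-05 (Hsd11b2). For 5 of the 6 genes all 9 libraries with a mimic and doxorubicin lay above all 9 without doxorubicin, a separation that 4.62% of tested genes showed; for Hsd11b2, 7 of the 9 did. All 6 genes passed the filter on low counts, which needs reads in only 1 group, so that these counts lean on the groups where the genes are high.

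The calls in single mimic conditions depended on which libraries were counted as separate. Some libraries of a group were much closer to each other than others were. Their counts differed by a chi-square per degree of freedom of 8.11 to 10.2 among all 3 miR-455 libraries with doxorubicin, and of 5.96 to 8.05 in 1 pair each of the untreated miR-222, miR-455 and combined groups, against 54.4 to 601 in the other pairs. The small spread of the miR-455 group with doxorubicin, and every count that needs its 3 libraries not to overlap with others, may thus rest on fewer than 3 independent samples. Summing such close libraries into 1 sample left 3 of the 6 called with miR-222 and 2 with miR-455. That alternative was chosen after the data were seen. A fit of only the groups compared left none called with both mimics (lowest adjusted p 0.0722). For Hsd11b2, leaving out replicate 1 of both mimics with doxorubicin turned the log2 fold change to -1.72 with both mimics. The average over the 3 mimic conditions was then 4.51 without a usable SE, so the loss of its call there is not read. Hsd11b2 was called with both mimics without replicate 2 (edgeR adjusted p 0.0279) or replicate 3 (0.0402) of both mimics with doxorubicin. Its call with miR-455 was lost without untreated miR-455 replicate 1 (0.056). DESeq2 called all 6 genes in each of the 3 mimic conditions.

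Mean levels with doxorubicin were lower with miR-222 or the combination than with miR-455 for all 6 genes, though edgeR called none of these differences and some groups overlap. As a share of the control mimic level with doxorubicin, miR-455 left 79.6% for Nkx6-1, 93.9% for Bhlhe23, 68.1% for Gpr50, 84% for Tmem200c, 66.8% for Palm3 and 56.1% for Hsd11b2. With miR-222 the shares were 27.3%, 42.6%, 17.4%, 19.5%, 16.6% and 41% in the same order of genes. With both mimics they were 14.6%, 38.9%, 22.3%, 20.8%, 59.5% and 9.21%. Every share is below the control level, and since control mimic libraries chose these genes, values below the control are a description only. The shares for Bhlhe23 and Hsd11b2 rest on control mimic replicate 2 with doxorubicin: without it they were 79.6%, 175% and 72.6% for Bhlhe23 with miR-222, miR-455 and both, and 72.8%, 99.6% and 16.4% for Hsd11b2. Without control mimic replicate 1, Bhlhe23 stood at 28.4% with miR-222 and 25.9% with both. Palm3 with both mimics stood at 34.3% without replicate 2 of that group, and Hsd11b2 with both at 0% without replicate 1. Among the mimic conditions all 6 genes had their highest mean with miR-455. The choice did not use these libraries but bears on this order, which 36.5% of all tested genes and 44.9% of the 2171 genes called higher for doxorubicin with the control mimic showed. Palm3 lost that order without replicate 1 of both mimics with doxorubicin or without replicate 2 of miR-455 with doxorubicin, where the log2 difference of both mimics from miR-455 turned to 0.24 and 0.0416.

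None of the 6 passed the adjusted test for miR-222 against miR-455 with doxorubicin in edgeR (adjusted p 0.176 to 0.97), where 1.43% of tested genes were called lower. At an unadjusted p under 0.05 there were 3, against 13.2% of all genes in either direction. The log2 difference was -2.10 ± 0.75 (SE) for Tmem200c, with a 95% interval of -3.70 to -0.51. It was -2.01 ± 0.87 for Palm3, -1.96 ± 0.74 for Gpr50 and -1.54 ± 0.79 for Nkx6-1. The values for Bhlhe23, -1.13 ± 1.05, and Hsd11b2, -0.45 ± 1.17, had intervals that include 0, as did that for Nkx6-1. For 5 of the 6 genes every miR-222 library lay below every miR-455 library, against 23.2% of all tested genes, the exception being Hsd11b2.

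This comparison changed its calls with the analysis. DESeq2 called 2 of the 6, Gpr50 (adjusted p 0.0193) and Tmem200c (adjusted p 0.0366). Leaving out the 4 libraries with the fewest genes, an alternative chosen after the data were seen, edgeR called the same 2 genes, with adjusted p of 0.0332 and 0.0132. With only the 2 groups in the fit, edgeR called Nkx6-1, Gpr50, Tmem200c and Palm3. Summing close libraries left 0 called.

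The combination set against miR-455 with doxorubicin gave lower values for all 6 genes and again no call in edgeR (adjusted p 0.123 to 0.929), where 0.930% of all tested genes were called lower. There were 3 genes at an unadjusted p under 0.05, against 17.6% of all genes. The log2 difference was -2.44 ± 0.82 (SE) for Nkx6-1, -2 ± 0.75 for Tmem200c and -1.61 ± 0.73 for Gpr50. Hsd11b2 had the lowest value, -2.54 ± 1.25, with an interval of -5.20 to 0.11, and Palm3 the value nearest 0, -0.17 ± 0.83, which turned to 0.24 or 0.0416 without either of the 2 libraries named above. Libraries of these groups did not overlap for 5 of the 6 genes, all but Palm3, against 19.8% of tested genes. DESeq2 called Nkx6-1 (adjusted p 0.0199) and Tmem200c (adjusted p 0.0465). Without replicate 1 of both mimics with doxorubicin, edgeR called Hsd11b2 (adjusted p 0.0111), whose remaining libraries in that group are at 0.

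Adding miR-455 to miR-222 gave no common direction. With both mimics against miR-222 under doxorubicin, 3 genes had higher and 3 lower values, none was called (adjusted p 0.463 to 0.965 in edgeR), and 0.161% of tested genes were called lower. DESeq2 also called 0 of the 6, and 1 had an unadjusted p under 0.05 in edgeR, Palm3 at a log2 difference of 1.84 ± 0.86 (SE), against 10.7% of all genes. No gene of the 6 had all libraries with both mimics below all miR-222 libraries, a separation found in 11.4% of tested genes. The 95% intervals were wide: -2.57 to 0.77 for Nkx6-1, -1.46 to 1.65 for Tmem200c and -1.18 to 1.88 for Gpr50.

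**Figure D3:**
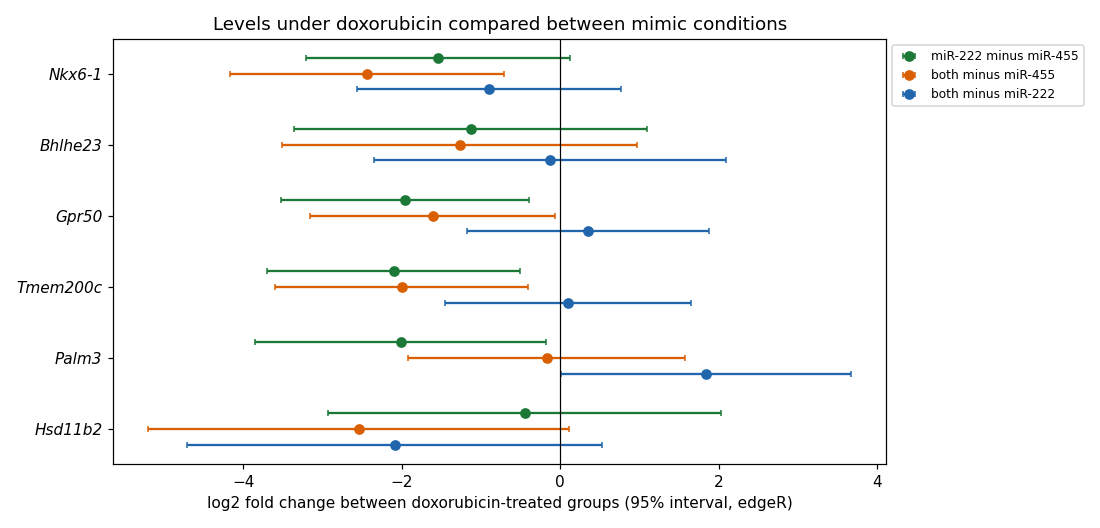
Log2 difference in level with doxorubicin between mimic conditions for each of the 6 genes, from the edgeR fit, with bars for 95% intervals and colours for the 3 comparisons. All values for miR-222 and for both mimics against miR-455 lie below 0, while those for both against miR-222 lie on either side of 0.

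Whether the response itself, treated against untreated, differed between mimics was tested with interaction terms. None of the 6 passed for miR-222 minus miR-455, both minus miR-222 or both minus miR-455 (edgeR, lowest adjusted p 0.41, 1 and 0.914). Gpr50 in the first and Bhlhe23 in the last had both untreated groups at 0 and no usable SE, so they could not have passed. No gene of the table was called in these 3 tests by edgeR, where 3.67%, 0.951% and 4.24% of genes had an unadjusted p under 0.05, and 1, 0 and 2 of the 6 did. The 1 gene was Tmem200c, with an unadjusted p of 0.000544, which edgeR called without the 4 libraries with the fewest genes (adjusted p 0.0475) and DESeq2 called with all libraries (adjusted p 0.0177). Of the 14 untreated Tmem200c counts with miR-222, 11 came from replicate 3, and miR-455 had none. Without doxorubicin none of the 6 was called between mimic conditions by edgeR, where 1.12% (miR-222 against miR-455), 0% (both against miR-222) and 0.433% (both against miR-455) of tested genes were called lower and 1.18%, 0% and 0.315% higher. At an unadjusted p under 0.05 there were 1, 1 and 2 of the 6, against 12.0%, 3.94% and 11.4% of tested genes. Gpr50 in the first and Bhlhe23 in the last of these comparisons were at 0 in both groups and could not be called. DESeq2 called Tmem200c for miR-222 against miR-455 (adjusted p 0.0325).

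The same pattern was rare in the whole table. With at most 3 counts over the 3 untreated libraries and at least 1 CPM in each of the 3 libraries with doxorubicin, 29 of 21767 genes (0.133%) were switched on with the control mimic and 5 switched off by the reverse rule. Of the 6 genes 5 are among the 29; Bhlhe23 is not, since it had no count in replicate 1. With miR-455 the pattern held for 26 genes (0.119%), with miR-222 for 5 (0.0230%) and with both for 4 (0.0184%), and the reverse pattern for 2, 5 and 5. These 4 lists hold 5, 4, 3 and 2 of the 6 genes for the control mimic, miR-455, miR-222 and both. The number for miR-455 was larger than with miR-222 or both at each threshold tried. It was 87 against 15 and 13 with a minimum of 0.5 CPM, and 65 against 14 and 9 with up to 10 untreated counts. The pattern needs all 3 treated libraries to reach the minimum, which close libraries do more easily. Chi-square per degree of freedom between treated libraries was 8.11 to 10.2 with miR-455, 54.4 to 95.9 with miR-222 and 132 to 374 with both. The part of this closeness in the larger number was not tested.

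Just inside the rule by level with the control mimic and doxorubicin lay Krtap3-3 at 1.6 and Wnt9b at 1.61 CPM (the latter named after its values were seen), and the 6 genes lie above them at 5.4 to 19.9 CPM. The highest of the other 24 were Ltk, a receptor tyrosine kinase (14.7 ± 9.99 CPM, SD, n = 3), Ppp2r2c, a regulatory subunit of protein phosphatase 2A (13.5 ± 3.79), and Rbp2, a retinol-binding protein of the gut (8.39 ± 2.89). Itpka, an inositol trisphosphate kinase, followed at 6.02 ± 3.88 CPM and Eomes, a T-box factor, at 4.67 ± 2.16 CPM. Also among the 24, and named after their values were seen, were the developmental transcription factors En2, Barhl2, Lhx1, Dlx1, Dlx3, Hoxd13 and Prdm13, at 2.1 to 4.47 CPM.

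In mimic libraries, which did not choose them, edgeR called 20 of these 24 genes higher for doxorubicin with miR-455, 15 with miR-222 and 11 with both. The shares of all tested genes were 9.02%, 7.76% and 7.85%. Genes chosen for few untreated counts pass the filter through groups where they are high, so nothing is read from the direction of these calls. The mean with miR-455 was above those with miR-222 and with both for 23 of the 24, Lhx1 being the exception, where 36.5% of tested genes and 44.9% of those called higher with the control mimic showed that order. Barhl2, for example, was at 2.99 ± 0.616 CPM with miR-455, 0.544 ± 0.295 with miR-222 and 0.473 ± 0.424 with both (SD, n = 3). Ltk was at 14.4 ± 0.847, 12 ± 1.91 and 11.8 ± 7.33 CPM in the same order, a smaller difference than for Barhl2. Leaving out 1 library left the miR-455 mean highest for 20 to 24 of the 24 genes. The choice of these genes by control mimic values bears on this order. They were also measured in the same libraries, so the 24 are not separate observations of it and the count is a description.

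**Figure D4:**
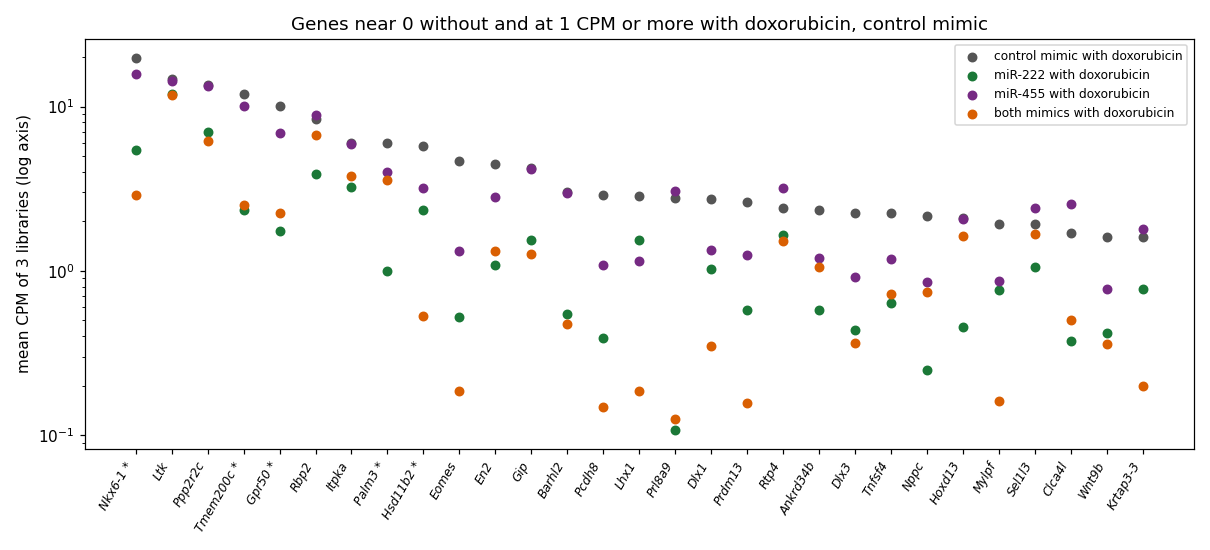
Mean level with doxorubicin, in CPM (y axis, logarithmic, mean of 3 libraries per point), of the 29 genes switched on with the control mimic (x axis), coloured by the 4 mimic conditions; * marks genes among the 6. The mean with miR-455 is above those with miR-222 and both for 28 of the 29 genes.

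Some genes outside the 6 tracked them closely over all 24 libraries, by the root mean square difference of log2 CPM after centring each gene on its mean. Gip, an incretin hormone, was among the 2 nearest for Nkx6-1 (0.937), Gpr50 (0.837), Tmem200c (0.908) and Palm3 (0.826). Slc4a11, a membrane transporter, was the nearest to Gpr50 (0.605) and Palm3 (0.755), and Cst6, a cystatin protease inhibitor, was second for Nkx6-1 (0.983) and Tmem200c (0.924). Bhlhe23 had Foxe1 (0.669) and Pitx1 (0.71), both transcription factors, as its nearest, and Hsd11b2 had Krtap3-3 (0.811) and Prdm13 (0.878). Within the 6, the same difference ran from 0.765 (Gpr50 and Palm3) to 1.74 (Hsd11b2 and Palm3), so the 6 did not all track each other closely. The libraries share depth and treatment, so these are descriptions of likeness over 24 libraries.

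Relatives of the 6 genes were read from lists chosen with earlier results known. Among islet and neural homeodomain and helix-loop-helix factors, relatives of Nkx6-1 and Bhlhe23, 8 of 24 had enough counts to be tested. Of these 8, doxorubicin raised 5 with the control mimic, 5 with miR-455, 1 with miR-222 and 0 with both (edgeR; Olig2 had an adjusted p of 0.0507 with both). The share of all tested genes called higher was 15.2%, 9.02%, 7.76% and 7.85% in that order. Genes near 0 without doxorubicin pass the filter only through groups where they are high, so nothing is read from the direction of the 8. With the control mimic Olig1 and Olig2, oligodendrocyte factors, were at 1.21 ± 1.19 and 2.04 ± 2.04 CPM (SD, n = 3) with doxorubicin and at 0 without. Nkx2-1, a lung and thyroid factor, went from 0.0886 ± 0.119 to 1.84 ± 1.43 CPM and Ptf1a, a pancreas factor, from 0 to 1.77 ± 2.09 CPM; the fifth, named after its values were seen, was Mafa. Pdx1, the other beta cell factor often named with Nkx6-1, had no count in any group.

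Markers of the islet and the kidney were mostly absent, while neuron markers were low and higher with doxorubicin. Of 8 islet markers 7 were under 1 CPM in every library, among them Ins1, Ins2, Gcg and Sst, with Iapp at 0 in all; Pcsk1 was the exception and reached 29.5 CPM. All 6 renal collecting duct markers, the cells where Hsd11b2 is best known, were under 1 CPM in every library. Neuron markers summed to 2.94 to 6.15 CPM without doxorubicin and 5.89 to 22.1 CPM with it, and with the control mimic to 4.69 to 5.67 and 13.1 to 22.1 CPM; 3 of the 8, Snap25, Rbfox3 and Syp, stayed under 1 CPM in every library. Schwann cell and glia markers summed to 5.49 to 9.14 CPM without and 7.17 to 16.1 with doxorubicin, epithelial markers to 6.69 to 22 and 12.4 to 33, and leukocyte markers to 7.19 to 12.7 and 12.3 to 24.3. Members of the last 2 lists did not move alike. Cd14 was at 1.71 to 4.73 CPM without and 9.53 to 14.2 with doxorubicin, but Csf1r at 0.446 to 2.02 and 0 to 0.722. Krt19 was at 0.0459 to 4.76 CPM without and 1.49 to 26 with it, but Krt18 at 1.93 to 10.8 and 0 to 2.87. The part of other cells in the levels of the 6 genes was not tested.

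In these comparisons 12.3% of all tested genes were called lower for doxorubicin with the control mimic, 9.11% with miR-455, 6.87% with miR-222 and 7.24% with both, the background for the falls that follow. Relatives of Tmem200c and Palm3 gave 6 tested genes, and no melatonin receptor, the relatives of Gpr50, had enough counts to be tested. Of these 6, doxorubicin raised 0 and lowered 3 with the control mimic (edgeR), and lowered 1, 3 and 1 with miR-222, miR-455 and both; with miR-455 it raised 1, Tmem200a, with a log2 fold change of 2.59 ± 0.81 (SE; adjusted p 0.0316). Palmd, a paralemmin relative, fell by 4.18 ± 0.88 (SE) on the log2 scale with the control mimic, Palm2 by 2.56 ± 0.51 and Akap2, an anchor of protein kinase A, fell by 3.24 ± 0.34. Palm, the founding member, had a log2 fold change of 0.84 ± 0.41 that was not called (adjusted p 0.134). Mtnr1b, a melatonin receptor, had no count in any group.

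Around Hsd11b2, doxorubicin with the control mimic raised 2 and lowered 1 of 9 tested genes (edgeR). They come from a list for steroid metabolism and corticosteroid receptors, in which not every enzyme acts on corticosteroids. Hsd11b1, which makes active corticosterone where Hsd11b2 removes it, rose from 22.9 ± 2.99 to 71.7 ± 38.5 CPM (SD, n = 3), and Hsd17b4, a peroxisomal enzyme, from 65.5 ± 7.3 to 132 ± 43.6 CPM. Nr3c2, the mineralocorticoid receptor, fell from 14.2 ± 3.2 to 1.61 ± 1.47 CPM. In the miR-222, miR-455 and combined conditions 0, 1 and 2 of the 9 rose and 1, 1 and 0 fell, with Nr3c2 at adjusted p of 0.0148, 0.0435 and 0.103. Of 13 tested targets of the corticosteroid receptors 1 rose and 2 fell with the control mimic; Cdkn1c, a cell cycle inhibitor, rose by 3.60 ± 0.47 (SE, log2), and Fkbp5, a receptor chaperone, fell by 1.41 ± 0.22. In the mimic conditions 0 of these 13 rose and 3, 6 and 5 fell.

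Chromatin repressors were listed, together with some of their opponents, because repressor complexes keep developmental genes off. The Polycomb list also holds the opponents Kdm6a and Kdm6b, and the list for DNA methylation holds Tet1, Tet2 and Tet3, which remove it. Falls counted over these lists are therefore not all falls of repressors. Among the 21 genes of the Polycomb list, doxorubicin raised 0 in any of the 4 conditions (edgeR). It lowered 5 with the control mimic, 5 with each single mimic and 1 with both. Jarid2, a cofactor that guides the PRC2 complex, fell in all 4 conditions, by 1.2 ± 0.31, 1.46 ± 0.30, 1.56 ± 0.31 and 1.61 ± 0.31 (SE, log2). Suz12, a core subunit of that complex, fell by 1.10 ± 0.29 with the control mimic and by 0.94 ± 0.28 with miR-455, while its values with miR-222, -0.05 ± 0.28, and with both, 0.11 ± 0.28, were not called; in the interaction tests above edgeR called no gene. Of 15 genes for DNA methylation and histone deacetylases 6, 4, 4 and 4 fell and 1, 1, 0 and 1 rose in the same order of conditions. Tet2 and Uhrf1, which remove and help maintain DNA methylation, fell in all 4, Uhrf1 by 2.74 ± 0.37 with the control mimic, and Hdac9 and Dnmt3a did so too.

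The nearest genes of the table on either side, in the RefSeq gene order on GRCr8, mostly had transcripts of their own without doxorubicin and no shared direction. Between them and the 6 genes lie 0 to 8 reference genes whose symbols were not matched in the table, with 7 before Gpat3 on the side of Nkx6-1 and 8 before Arhgap28 on that of Tmem200c. With the control mimic (edgeR) Arhgap28 fell by 1.49 ± 0.34 (SE, log2; adjusted p 0.00303). Gpat3 had a log2 fold change of -2.13 ± 0.76 (adjusted p 0.0432) that rests on 1 library, since it was at 5.24, 7.3 and 119 CPM without doxorubicin and at 8.88, 11 and 10.1 CPM with it. Higher were Il27ra beside Palm3, by 2.85 ± 0.72 (adjusted p 0.00629), and both flanks of Hsd11b2, Zdhhc1 by 1.5 ± 0.40 (adjusted p 0.00908) and Atp6v0d1 by 1.05 ± 0.31 (adjusted p 0.0148). Cds1, Slc17a9, Ythdf1, Hmgb3, Vma21 and Epb41l3 were not called, and Misp3 beside Palm3 had too few counts to test. In the mimic conditions the neighbours called were Arhgap28 (log2 fold change -0.995, adjusted p 0.0467) and Atp6v0d1 (0.941, adjusted p 0.0371), both with miR-455.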

How the data were processed

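Values are expected counts per gene symbol as deposited by the authors for 24 polyA libraries; per the submitters' processing notes, Salmon, DESeq2 and the build Rnor_6.0 were used; versions and the table's filter: not given in the sources used here. Of the values 7.35% were not whole and all were rounded. In R 4.3.3, edgeR 4.0.16 (filterByExpr by group, TMM, means model of 8 groups, quasi-likelihood F test) tested 14303 genes, with Benjamini-Hochberg adjustment over all of them in each comparison; an adjusted p under 0.05 makes a call. SE is the log2 fold change divided by the square root of F. CPM are TMM-scaled. Folds against 0 use a floor of 3 counts over the group. The fit was tested on simulated data. Alternatives were DESeq2 1.42.0, its size factors, other filters, only the groups compared, a replicate block and leaving out libraries. Same-numbered libraries deviated together (correlation over 0.1) in only 5 of 12 pairs, so numbers were not taken to pair libraries. Members and lists were chosen with earlier results of these data known. Named besides the 6 are up to 4 genes a list by smallest p with the control mimic, the 2 likeliest genes per member, neighbours, and the 5 highest genes with the same pattern.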

Additional observations from a re-analysis of the deposited data

How the results depend on the processing

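Under alternatives other than leaving out 1 library, counts of the 6 genes called were within 1.5 times the reported value in 93 results and moved further in 11. DESeq2 called 2 of the 6 for both mimics against miR-455 with doxorubicin, 2 for miR-222 against miR-455 with doxorubicin, 1 for that pair without doxorubicin and 1 for the difference between their responses, against 0 each. Leaving out the 4 libraries with the fewest genes gave 2, 1 and 1 for the last 3. With only the groups compared, 0 of the 6 were called for doxorubicin with both mimics and 4 for miR-222 against miR-455 with doxorubicin, and without doxorubicin the 6 genes had too few counts to be tested. With close libraries summed, 3 were called for doxorubicin with miR-222 and 2 with miR-455.

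Counts over all genes moved more. For doxorubicin with miR-222, miR-455 and both mimics (2093, 2593 and 2158 genes called), only the groups compared gave 4785, 5419 and 5, leaving out the 4 libraries with the fewest genes 4906, 5545 and 4757, and summing close libraries 556, 49 and 570; summing gave 2746 against 5776 for the average. With doxorubicin, miR-222 against miR-455, both against miR-455 and both against miR-222 (511, 355 and 23) gave 917, 1002 and 148 with DESeq2, 1829, 779 and 91 without those 4 libraries, 3416, 94 and 0 with only the groups compared, and 6, 0 and 0 with close libraries summed. The last comparison gave 15 with no filter and 8 with the replicate block. Without doxorubicin the same order (329, 107 and 0) gave 731, 400 and 24 with DESeq2, 1584, 514 and 3 without the 4 libraries, 544 and 0 for the first 2 with only the groups compared, and 3 and 3 with close libraries summed. For the responses of miR-222 minus miR-455, both minus miR-455 and both minus miR-222 (0 each), DESeq2 gave 42, 27 and 3, leaving out the 4 libraries 58 and 1 for the first 2, and only the groups compared 87 for the first. Genes switched on (29 with the control mimic, 5 with miR-222, 26 with miR-455, 4 with both) numbered 56, 15, 87 and 13 at 0.5 CPM, and 47, 14, 65 and 9 with at most 10 untreated counts. The cause was not tested for these shifts.

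Leaving out 1 library at a time, the 6 genes called ranged from 5 to 6 for doxorubicin with both mimics, with miR-455 and averaged, and from 0 to 1 for both against miR-455 with doxorubicin. The 5 for the average leaves out Hsd11b2, whose fit then gave no usable SE. All genes called ranged from 1187 to 1742 (doxorubicin with miR-222), 1542 to 2584 (miR-455), 1330 to 2914 (both) and 5269 to 6383 (averaged); the lowest of the first 3 came without untreated replicate 1 of each. With doxorubicin the range was 231 to 322 for miR-222 against miR-455, 108 to 1039 (without both mimics with doxorubicin replicate 1) for both against miR-455 and 3 to 38 for both against miR-222. Without doxorubicin the first 2 ranged over 108 to 399 and 26 to 121, and the third stayed at 0; each response difference ranged from 0 to 1.

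Directions turned for 4 genes, as log2 values. Bhlhe23 for both mimics against miR-222 with doxorubicin went from -0.13 to 0.106 without the 4 libraries with the fewest genes. Leaving out 1 library, it ranged from -0.479 to 0.358 and Tmem200c in that comparison from -0.226 to 0.578. Palm3 for both against miR-455 with doxorubicin ranged from -0.966 to 0.24, and Hsd11b2 for doxorubicin with both mimics from -1.72 to 6.58.

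The replicate block changed the call of none of the 6 genes, with 6, 6 and 5 called for doxorubicin with miR-222, miR-455 and both mimics. Correlations of same-numbered libraries ran from -0.326 to 0.453, so the labels share only a number. At the levels of untreated libraries, 0 to 18 counts a group, differences between mimics were at the limit of depth.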
